A study of Mus musculus with 9 samples.

Results

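The amino acid carriers described here were the genes of the solute carrier families SLC1, SLC3, SLC6, SLC7, SLC36, SLC38 and SLC43, chosen by gene symbol alone, with the taurine carrier Slc6a6 left out. The rule found 34 of the 16344 genes in the deposited expression table. Of these, 32 had a mean of at least 10 normalized counts over the 9 libraries and were tested in 1 fit over 14169 genes. The symbols took in some genes that do not carry amino acids across a plasma or lysosomal membrane. These were Slc6a8 (creatine), Slc6a12 and Slc6a13 (GABA and betaine), Slc43a3 (purine nucleobases), Slc7a6os, a gene beside Slc7a6 that encodes no carrier, and Slc36a3os, an antisense RNA of Slc36a3.

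The libraries came from poly(A) RNA of CD8 T cells from spleen and lymph nodes of wild-type mice, activated through CD3 and CD28 with antibodies to both, at about 100000 cells per sample. The 3 groups held 3 libraries each and all carried this activation. The first group was kept overnight in 20 mM sodium chloride (NaCl), the second in 20 mM DAHB, a compound that the labels name only by these letters, and the third in DAHB with 10 nM oligomycin (DAHB+O), where the labels do not restate the DAHB dose. Oligomycin inhibits the mitochondrial ATP synthase, and the series title concerns mitochondrial ATP production and T cell differentiation. Oligomycin without DAHB was not analysed here, and the labels give no strain, age or sex. The labels do not tell whether the libraries of a group are from different mice or cultures, so the tests weigh only the scatter among the libraries sequenced, and that scatter may be technical.

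Naive T cells take up few amino acids, and activation raises the supply of leucine, glutamine, arginine and cystine through a small set of carriers. The heavy chain CD98, encoded by Slc3a2, brings light chains of the SLC7 family to the plasma membrane, among them LAT1, encoded by Slc7a5, which exchanges glutamine for leucine and other large neutral amino acids. Leucine and arginine in the cytosol and the lysosome are sensed by mTORC1, and the transcription factor ATF4 raises many carrier genes when amino acids are short or the integrated stress response is active, by binding composite C/EBP-ATF elements.

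Promoter windows are shown for the carriers whose upstream bases hold the core of the C/EBP-ATF element, as a description that no test links to the values below. The 250 bases before each RefSeq gene start (build GRCm38.p6) were searched on both strands for TGATGNAA, that core. Windows were found for 25 of the 34 genes, but not for Slc1a5, Slc38a1, Slc38a3, Slc43a3, Slc6a8, Slc7a2, Slc7a3, Slc7a4 and Slc7a5. The motif was in 2 of the 25 genes, where 226 of 9438 tested genes with a window (2.39%) held it. Counted by window, 3 of the carriers' 40 held a match, as did 3.45% of all 32851, and 13 of all windows, 0.0396%, held at least 2. All genes with a window other than Slc7a11 and Slc7a7 lacked a match in these bases, among them Slc3a2, Slc6a9, Slc7a1 and Slc38a7, described below. Some windows were only at starts inside the mm10 span of the gene, as for Slc3a2, Slc6a19 and Slc1a2. That of Slc3a2 ended at chr19:8714147, where its span on the minus strand ends at 8723369. The bases before the outermost annotated start of Slc3a2, Slc6a19 and Slc1a2 were not searched. Slc7a11, which encodes the cystine-glutamate exchanger, had 2 matches, at 66 to 59 and 47 to 40 bases before its start, in opposite orientations. Slc7a7, which encodes the light chain y+LAT1, had 1 match before each of 2 annotated starts and none before its other annotated starts. The match before the second of these 2 starts lies across the first, with 1 base before that start and 7 from it on. The windows are on the minus strand at chr3:50443614-50443863 for Slc7a11 and at chr14:54417945-54418194 and chr14:54417703-54417952 for Slc7a7, and are written 5′ to 3′ with the matched letters in capitals. A match describes letters only.
Slc7a11: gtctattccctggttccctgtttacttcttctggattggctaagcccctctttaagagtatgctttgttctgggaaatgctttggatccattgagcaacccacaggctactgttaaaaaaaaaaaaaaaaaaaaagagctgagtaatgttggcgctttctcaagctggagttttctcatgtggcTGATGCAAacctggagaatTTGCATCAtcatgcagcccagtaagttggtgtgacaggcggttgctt
Slc7a7, first start: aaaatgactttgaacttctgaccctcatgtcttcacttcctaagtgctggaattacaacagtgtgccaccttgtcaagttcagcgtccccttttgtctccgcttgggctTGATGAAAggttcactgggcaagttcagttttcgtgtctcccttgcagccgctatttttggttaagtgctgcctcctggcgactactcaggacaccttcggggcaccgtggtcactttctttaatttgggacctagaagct
Slc7a7, second start: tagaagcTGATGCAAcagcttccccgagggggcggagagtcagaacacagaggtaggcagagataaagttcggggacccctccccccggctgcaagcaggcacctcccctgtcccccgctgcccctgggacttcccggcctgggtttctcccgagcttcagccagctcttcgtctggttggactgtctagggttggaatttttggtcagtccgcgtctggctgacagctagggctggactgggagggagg

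Read counts recovered from the table came to between 28146402 and 39207045 per library. CD8 T cell markers (6 of 6 in the table, among them Cd8a and Cd3e) summed to 78025 to 83197 (NaCl), 90010 to 94216 (DAHB) and 65288 to 70514 (DAHB+O) normalized counts. In DAHB against NaCl, 4 of the 6 rose and 2 fell, beside 35.5% and 38.4% of all tested genes. In DAHB+O against DAHB, 1 rose and 5 fell, beside 33.1% and 29.5%. Markers of other cells were also present. The 5 B cell markers in the table summed to 7580 to 8108 (NaCl), 2679 to 2884 (DAHB) and 2000 to 2177 (DAHB+O) normalized counts, most of it Ighm in NaCl, while Pax5 was not in the table. The 7 monocyte and macrophage markers summed to 499.5 to 579, 1066 to 1294 and 811 to 931 in the same order, most of it Cd68, and Arg1 was not in the table. The 4 dendritic cell markers summed to 220.3 to 280.0, 442 to 522 and 350.1 to 405, and Clec9a and Siglech were not in the table. The 3 stromal and endothelial markers summed to 1207 to 1318, 1892 to 2096 and 1770 to 1956, most of it Pecam1, without Col3a1 and Cdh5. The 3 natural killer cell markers summed to 614 to 794, 974 to 1511 and 1170 to 1351, most of it Eomes. In the same order Eomes averaged 617, 1133 and 1216, Klrb1c 64.3, 55.2 and 44.3 and Ncr1 6.85, 3.01 and 3.36. CD4 T cell, neutrophil and red cell markers reached at most 254, 98.0 and 9.06 in any library. The part of these cells in the results below was not tested, and in bulk RNA fewer cells of a type and less RNA per cell cannot be told apart.

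More of the carriers fell than rose with DAHB, and more rose than fell when oligomycin was added to it. In DAHB against NaCl, limma with Benjamini-Hochberg adjustment over all tested genes called 10 of the 32 carriers higher, where 35.5% of all tested genes were higher. It called 18 lower, where the background was 38.4%. The median log2 difference of the carriers was -0.21, against -0.02 for all tested genes. Changes of at least 2-fold were seen in 7 carriers upwards, beside 14.7% of all genes, and in 4 downwards, beside 4.03%. The 7 were Slc38a3, Slc1a2, Slc7a7, Slc7a4 and 3 genes that are not amino acid carriers of these membranes, Slc6a8, Slc6a13 and Slc36a3os. The 4 were Slc7a2, Slc7a11, Slc6a9 and Slc7a3, which carry cationic amino acids, cystine and glycine. Slc3a2, Slc1a5, Slc38a6 and Slc43a1 did not pass the test.

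In DAHB+O against DAHB the balance was the other way. Limma called 20 of the 32 carriers higher, where 33.1% of all tested genes were higher, and 5 lower, where 29.5% were lower. The median log2 difference of the carriers was 0.40, against 0.02 for all tested genes. At least a 2-fold rise was seen in 9 carriers, beside 2.8% of all genes, and at least a 2-fold fall in 4, beside 6.11%. The 9 were Slc7a11, Slc7a3, Slc6a9, Slc1a4, Slc7a5, Slc7a1, Slc43a3, Slc3a2 and Slc38a7, and the 4 were Slc1a2, Slc6a13, Slc38a3 and Slc36a3os. Of these, Slc43a3, Slc6a13 and Slc36a3os are not amino acid carriers of these membranes. In DAHB+O against NaCl, 19 carriers were higher and 6 lower, where the background was 36.5% and 37.7%, and the medians were 0.44 and -0.01. Here 9 carriers were at least 2-fold higher, beside 14% of all genes, and Slc7a2 and Slc43a2 at least 2-fold lower, beside 6.06%. Groups did not overlap in any library for 27, 24 and 25 of the 32 carriers in these comparisons, where the shares of all tested genes were 75.6%, 67.6% and 78.7%. The 3 comparisons share libraries, so a carrier that fell in DAHB and stood higher in DAHB+O is partly described by the same DAHB values both times.

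**Figure D1:**
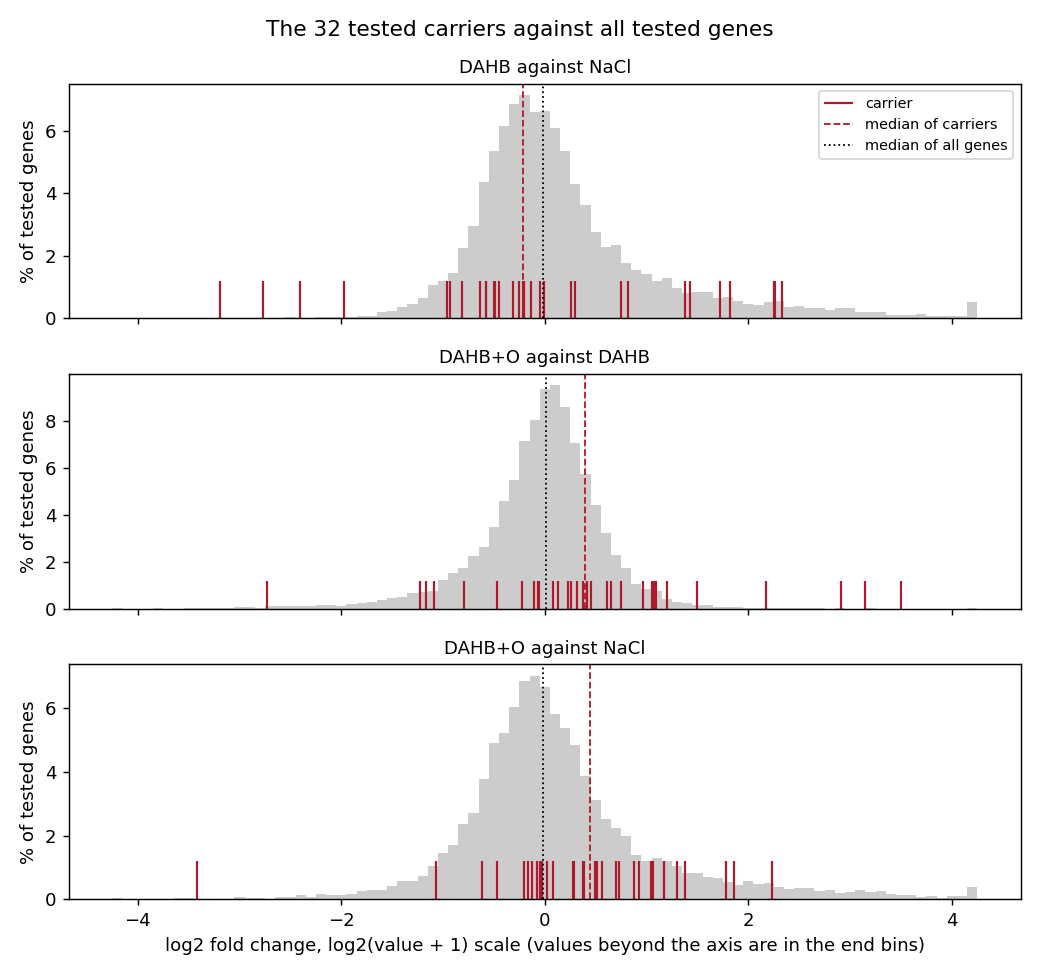
Distribution of log2 fold changes (horizontal axis, log2(value + 1) scale) over all 14169 tested genes, as the percent of genes per bin (grey), with each of the 32 tested carriers as a red line. Dashed and dotted lines mark the medians of carriers and of all genes, which are -0.21 and -0.02 in DAHB against NaCl, 0.40 and 0.02 in DAHB+O against DAHB, and 0.44 and -0.01 in DAHB+O against NaCl.

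**Figure D2:**
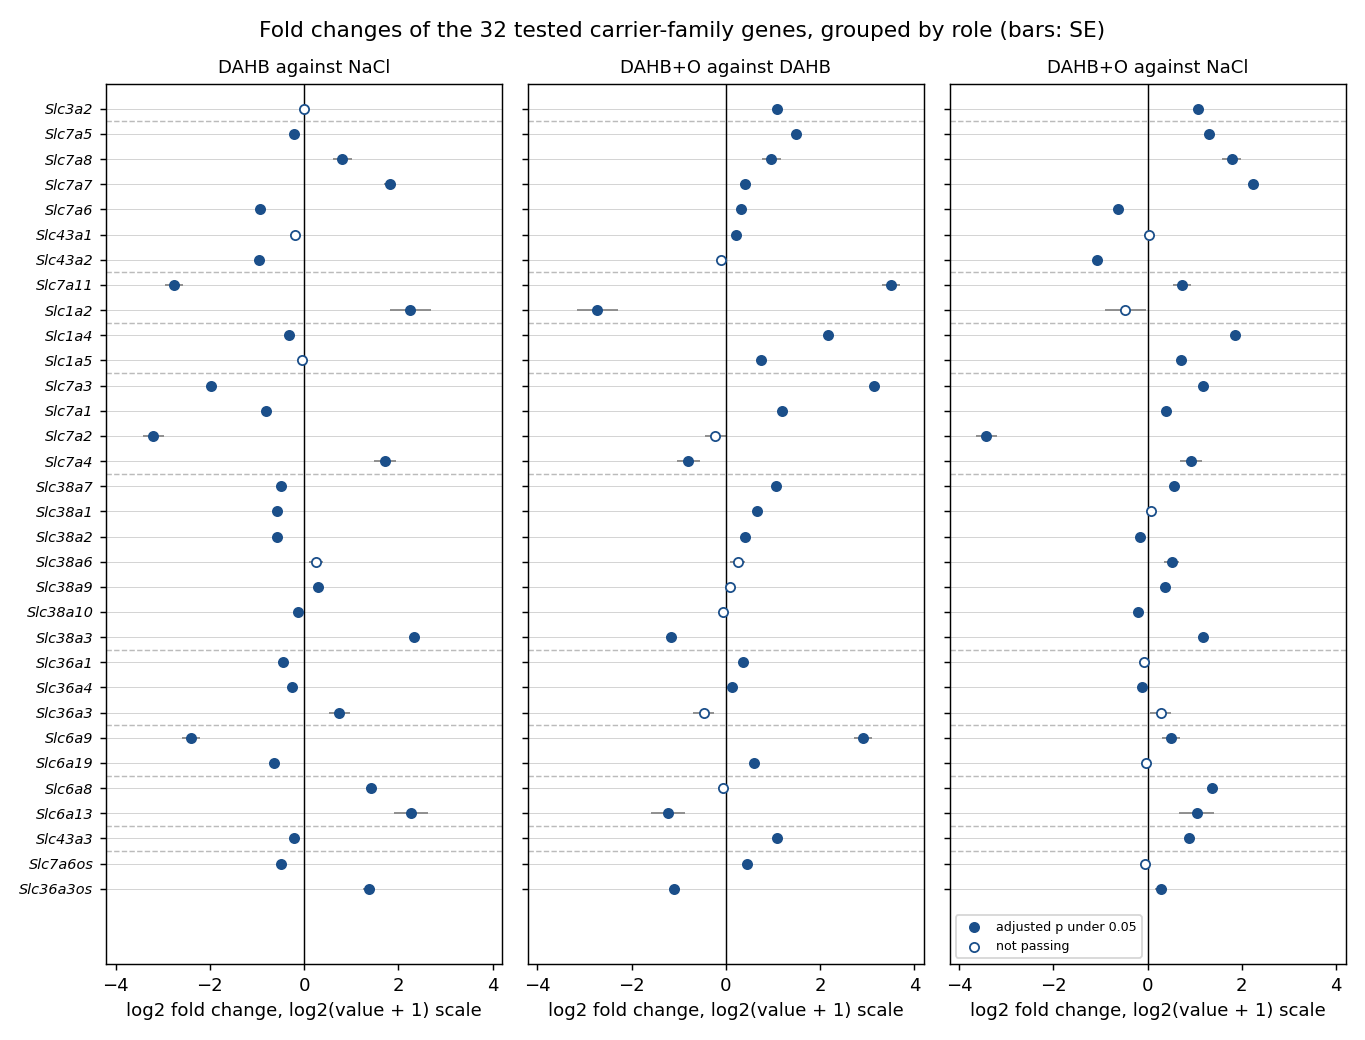
Log2 fold changes of the 32 tested carriers on the log2(value + 1) scale, grouped by role, with bars for the standard error and filled points for an adjusted p under 0.05. Slc7a11, Slc6a9, Slc7a3 and Slc7a1 lie left of 0 in DAHB against NaCl and right of 0 in DAHB+O against DAHB, and Slc7a2 lies left of 0 in both comparisons with NaCl.

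The heavy chain and its main light chain rose under oligomycin, and their NaCl and DAHB libraries overlapped. Slc3a2 (mm10 chr19:8706882-8723369, minus strand) had 7417, 7132 and 6903 normalized counts in the NaCl libraries, 7434, 7159 and 6741 in DAHB and 15389.9, 14898 and 14663 in DAHB+O. NaCl and DAHB overlapped and every DAHB+O library was above both. The rise over DAHB was 1.08 ± 0.042 on the log2 scale (SE, 3 libraries a group), a 2.11-fold change with an adjusted p of 2.41e-11 in limma. DAHB against NaCl gave -0.01 ± 0.042 with an adjusted p of 0.864. That near-zero difference took a positive sign under some settings, and under quantile normalization it reached 0.12 with an adjusted p of 0.0274.

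Slc7a5 (chr8:121881150-121907694, minus strand) had 12428 and 11436 normalized counts in NaCl, where the cell of replicate 2 is blank in the table and was left out of the fit. DAHB had 11578, 10255 and 9362, and DAHB+O had 30773, 28923 and 28143. NaCl and DAHB overlapped, and the DAHB+O libraries lay above all others. The rise over DAHB was 1.498 ± 0.064 (SE), 2.82-fold, with an adjusted p of 1.68e-10 in limma, and the rise over NaCl was 1.30 ± 0.072, 2.45-fold, with an adjusted p of 8.65e-10. In DAHB against NaCl, with 2 NaCl libraries, Slc7a5 fell by 0.20 ± 0.072 with an adjusted p of 0.0202. That call was lost without NaCl replicate 1 (adjusted p 0.171), without DAHB replicate 3 (0.0740) and under quantile normalization (0.197).

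Slc7a5 and Slc3a2 were also the most abundant carriers by length. Per kilobase of merged exon, Slc7a5 averaged 3218, 2804 and 7896 normalized counts in NaCl, DAHB and DAHB+O, and Slc3a2 averaged 2026, 2015 and 4246. The ratio of Slc7a5 to Slc3a2 per kilobase was 1.59 and 1.58 in the 2 NaCl libraries with both values, 1.48, 1.36 and 1.32 in DAHB, and 1.90, 1.85 and 1.83 in DAHB+O. The DAHB libraries had the lowest ratios and the DAHB+O libraries the highest, with no overlap, and no test was run on it. Among the 5 light chains Slc7a5, Slc7a6, Slc7a7, Slc7a8 and Slc7a11, Slc7a5 took 84.5% and 85.6% of the summed level per kilobase in the NaCl libraries, 88.9% to 89.9% with DAHB and 94.7% to 95.2% with DAHB+O.

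The other light chains were weaker per kilobase. Slc7a6 encodes y+LAT2, which exchanges arginine for neutral amino acids with sodium. It fell in DAHB, from 2484, 2376 and 2492 to 1396, 1236 and 1223 normalized counts, and had 1579, 1615 and 1588 in DAHB+O. The groups formed 3 separate levels with NaCl on top. The fall was 1.91-fold (log2 -0.93 ± 0.051, adjusted p 3.16e-10, limma), and DAHB+O was 0.31 above DAHB (adjusted p 7.7e-05) and 0.62 below NaCl on the log2 scale.

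Slc7a7, whose promoter windows are printed above, rose stepwise. It had 38.3, 36.4 and 39.9 normalized counts in NaCl, 132, 141 and 138 in DAHB and 175, 187 and 189 in DAHB+O, with no overlap between groups. The rise was 3.53-fold from NaCl to DAHB (log2 1.82 ± 0.114, adjusted p 1.4e-09, limma) and 1.34-fold from DAHB to DAHB+O (log2 0.42, adjusted p 0.00505). Slc7a7 and Oxa1l overlap by 232 bases on opposite strands, all in exons of both, and whether the counts used strand is not given in the sources used here.

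Slc7a8 encodes LAT2, a relative of LAT1, and was weak. It had 14.5, 16.7 and 17.2 normalized counts in NaCl, 28.9, 33.9 and 25.0 in DAHB and 57.6, 58.8 and 57.1 in DAHB+O. The groups did not overlap. It rose by 0.81 ± 0.201 from NaCl to DAHB (adjusted p 0.00187, limma), a call lost under quantile normalization (log2 0.15, adjusted p 0.505), and by 0.97 from DAHB to DAHB+O (adjusted p 0.000628).

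Slc43a1 and Slc43a2 encode LAT3 and LAT4, uniporters of large neutral amino acids that need no heavy chain. Slc43a2 had 2511, 2668 and 2701 normalized counts in NaCl, 1220.0, 1388 and 1439 in DAHB and 1216, 1209 and 1329 in DAHB+O. DAHB and DAHB+O overlapped and both lay below every NaCl library. Slc43a2 fell 1.95-fold in DAHB (log2 -0.96 ± 0.061, adjusted p 1.53e-09, limma) and differed from DAHB by -0.11 ± 0.061 in DAHB+O (adjusted p 0.143). Without DAHB replicate 1 that difference passed, at -0.18 with an adjusted p of 0.00803, and with the replicate block it passed at 0.0499. Slc43a1 stayed between 211 and 286 in all 9 libraries. Its log2 difference of 0.23 between DAHB+O and DAHB had an adjusted p of 0.0460 in limma. That value rose above 0.05 when any library other than DAHB replicate 2 or DAHB+O replicate 2 was left out (0.0519 to 0.181). The same held in edgeR (0.0534) and in DESeq2 (0.105). In DAHB against NaCl Slc43a1 did not pass (-0.20, adjusted p 0.0612) except without DAHB replicate 2 (-0.29, 0.0121) and under quantile normalization (-0.45, 0.000810).

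**Figure D3:**
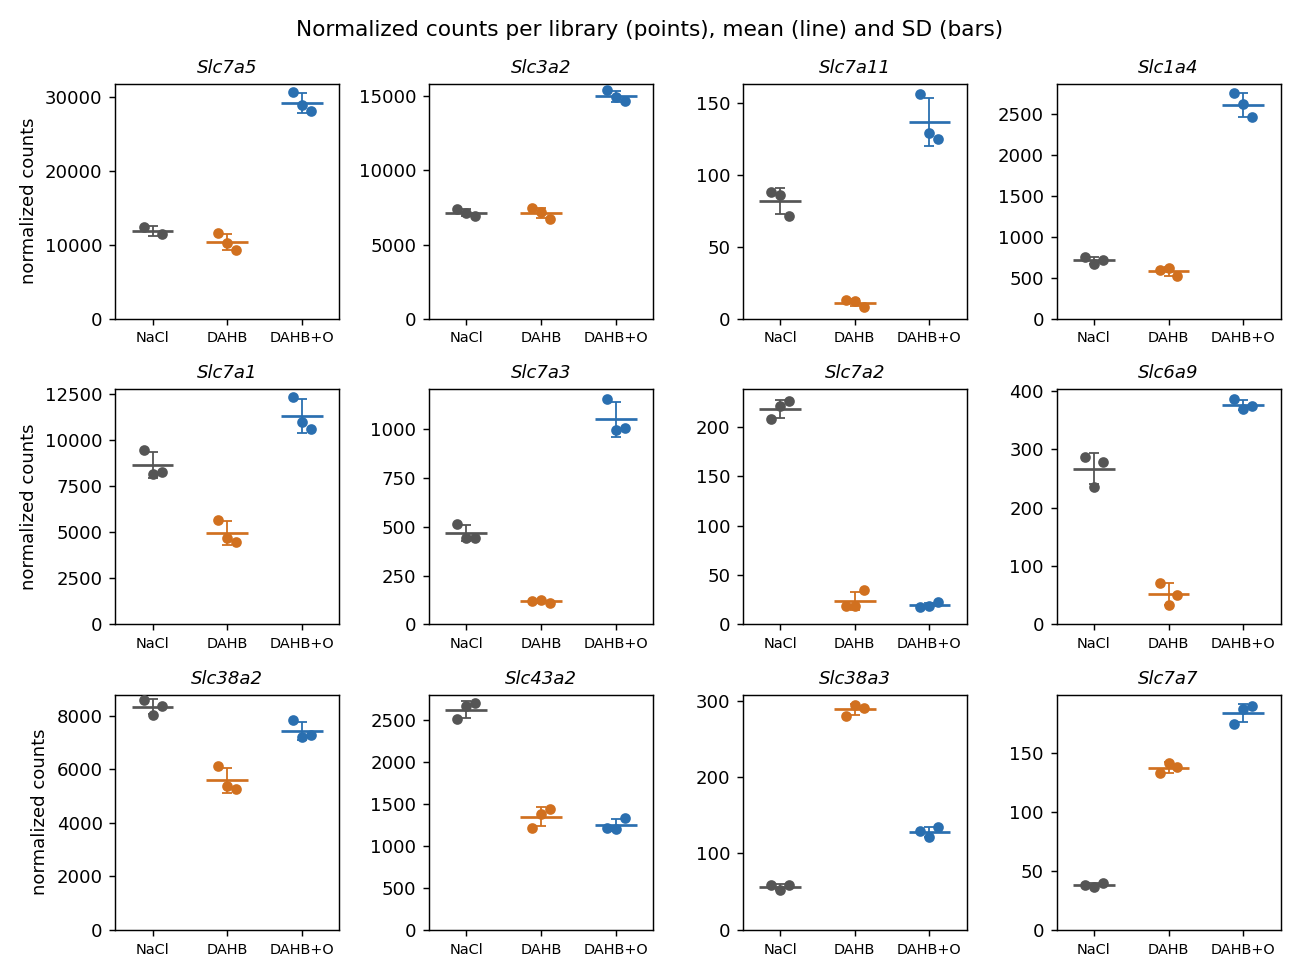
Normalized counts in each library (points) of the 3 groups for 12 carriers, on linear axes from 0, with the group mean as a line and the SD as bars. DAHB+O libraries lie above all others for Slc7a5, Slc3a2, Slc1a4, Slc7a1, Slc7a3, Slc6a9, Slc7a11 and Slc7a7, and DAHB libraries lie highest for Slc38a3.

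Slc7a11 (chr3:49892526-50443614, minus strand) encodes xCT, which takes up cystine for glutathione in exchange for glutamate. It had 87.9, 85.5 and 71.6 normalized counts in NaCl, 12.9, 12.6 and 8.34 in DAHB and 156, 129 and 125 in DAHB+O. The groups formed 3 separate levels with DAHB at the bottom, where the recovered reads were 13, 13 and 8. Slc7a11 fell 6.81-fold in DAHB (log2 -2.77 ± 0.191, adjusted p 4.01e-09, limma) and was 11.3-fold higher in DAHB+O than in DAHB (log2 3.501 ± 0.191, adjusted p 7.68e-10). DAHB+O stood 1.66-fold above NaCl (log2 0.73, adjusted p 0.00278), a call lost under quantile normalization (log2 0.21, adjusted p 0.348).

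Slc1a2 encodes a glutamate carrier best known from astrocytes, and it differed in the opposite direction at low counts. It had 16.5, 7.87 and 25.4 normalized counts in NaCl, 97.5, 63.9 and 68.8 in DAHB and 15.1, 4.61 and 16.1 in DAHB+O. Every DAHB library was above all others, while NaCl and DAHB+O overlapped. The rise in DAHB was 4.77-fold (log2 2.26 ± 0.431, adjusted p 0.000225, limma), and DAHB+O was 6.62-fold below DAHB (log2 -2.73, adjusted p 5.64e-05). The 2 neutrophil markers in the table, without S100a8 and S100a9, also summed highest in DAHB, at 30.8 to 98.0. They summed to 4.14 to 17.7 in NaCl and 3.78 to 8.93 in DAHB+O. Mean sums of the monocyte and macrophage, dendritic cell, stromal and endothelial and CD8 T cell markers were highest in DAHB as well. Those of B cell and red cell markers were highest in NaCl, and those of natural killer and CD4 T cell markers in DAHB+O. The part of any of these cells in the Slc1a2 values was not tested.

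The alanine-serine-cysteine exchangers both rose in DAHB+O against DAHB, beside 33.1% of all tested genes. Slc1a4 (chr11:20302180-20332713, minus strand) encodes ASCT1, a serine and alanine exchanger. It had 759, 672 and 718 normalized counts in NaCl, 599, 615 and 519 in DAHB and 2748, 2622 and 2455 in DAHB+O. The 3 groups did not overlap, and DAHB+O stood far above the others. The rise over DAHB was 4.52-fold (log2 2.17 ± 0.069, adjusted p 3.52e-12, limma), and DAHB was 1.24-fold below NaCl (log2 -0.31, adjusted p 0.000799). Its RefSeq window held 1 match to the motif across the start itself, outside the 250 bases counted above, and 3.97% of all windows of 300 bases held a match.

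Slc1a5 (chr7:16781340-16798274, plus strand) encodes ASCT2, a main glutamine carrier of activated T cells. It had 7267, 7076 and 6795 normalized counts in NaCl, 7217, 6779 and 6452 in DAHB and 11845, 11379 and 11194 in DAHB+O. NaCl and DAHB overlapped, with a difference of -0.05 ± 0.044 that did not pass (adjusted p 0.330, limma) and changed sign under quantile normalization (0.08, adjusted p 0.112). DAHB+O was 1.68-fold above DAHB (log2 0.75, adjusted p 1.7e-09). With Slc7a5 and Slc3a2, Slc1a5 made up 55.0% and 56.2% of the summed level per kilobase of all 34 genes in the NaCl libraries, 59.3% to 61.4% with DAHB and 69.7% to 70.2% with DAHB+O. The sum over all of them except Slc7a5 was 9035 to 9452 normalized counts per kilobase (NaCl), 7562 to 8203 (DAHB) and 13105 to 13764 (DAHB+O).

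**Figure D4:**
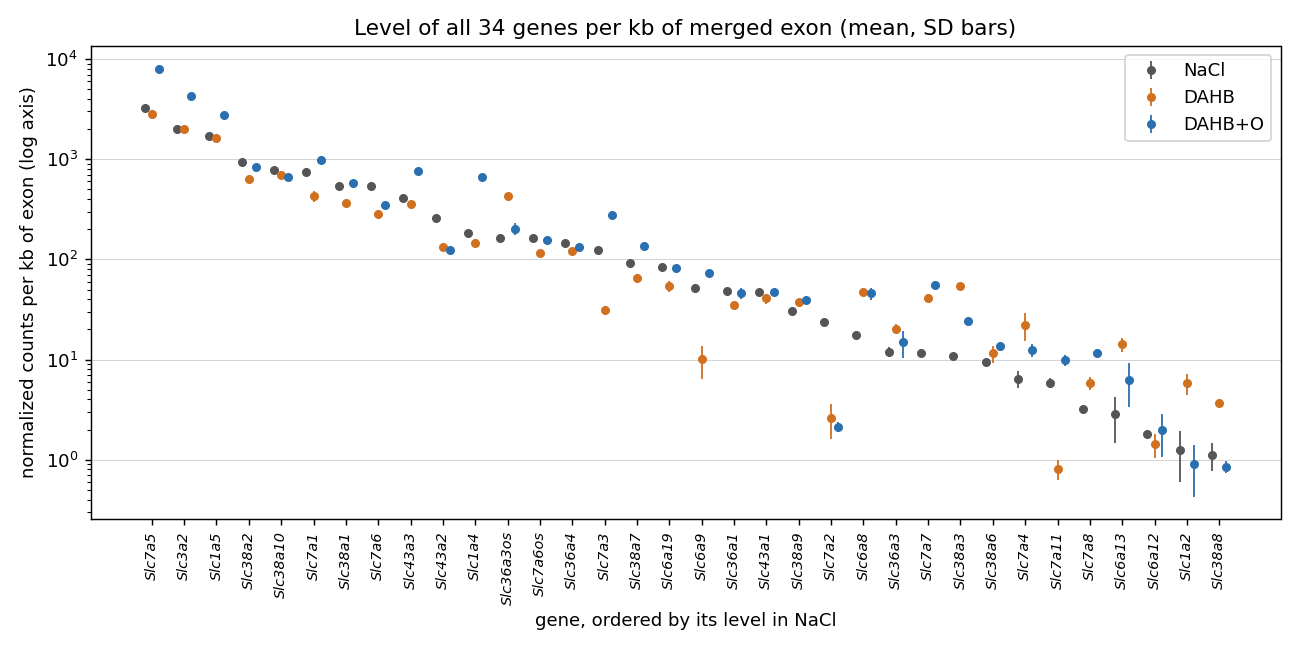
Mean level of each of the 34 genes in normalized counts per kilobase of merged exon on a log axis, with SD bars, in NaCl, DAHB and DAHB+O, ordered by the level in NaCl. Slc7a5, Slc3a2 and Slc1a5 lead in that order in every group, and Slc7a11 falls to 0.811 in DAHB.

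The order of levels per kilobase began with Slc7a5, Slc3a2 and Slc1a5 in each group, and their libraries did not overlap with the next in order. Next came Slc38a2 in NaCl at 942, Slc38a10 in DAHB at 704 and Slc7a1 in DAHB+O at 981. Neighbours that overlapped in NaCl included Slc38a10 with Slc7a1 and Slc38a1 with Slc7a6. The lowest mean was that of Slc38a8 in NaCl (1.13) and DAHB+O (0.854), where its libraries overlapped those of Slc1a2, and of Slc7a11 in DAHB (0.811), where they overlapped no other gene's.

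Among the 4 genes of the cationic carriers of arginine and lysine, 1 rose and 3 fell in DAHB (35.5% and 38.4% of all tested genes), and 2 rose and 1 fell in DAHB+O against DAHB (33.1% and 29.5%). Slc7a4 was the 1 that rose in the first and the 1 that fell in the second. Slc7a1 (chr5:148327410-148399904, minus strand), the main arginine carrier CAT1, had 9481, 8184 and 8302 normalized counts in NaCl, 5696, 4682 and 4479 in DAHB and 12376, 10982 and 10587 in DAHB+O. The 3 groups did not overlap. It fell 1.75-fold in DAHB (log2 -0.81 ± 0.081, adjusted p 2.78e-07, limma) and was 2.29-fold higher in DAHB+O than in DAHB (log2 1.197, adjusted p 8.38e-09).

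Slc7a3 (chrX:101079210-101086020, minus strand) encodes CAT3 and differed in the same directions. It had 513, 442 and 441 normalized counts in NaCl, 117, 126 and 109 in DAHB and 1152, 995 and 1004 in DAHB+O, again at 3 separate levels. The fall was 3.93-fold (log2 -1.97 ± 0.086, adjusted p 2.75e-11, limma). DAHB+O was 8.86-fold above DAHB (log2 3.15, adjusted p 6.92e-13) and 2.25-fold above NaCl (log2 1.17, adjusted p 7.89e-09).

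Slc7a2 encodes CAT2, which brings arginine to nitric oxide synthase in activated macrophages, and it stayed low with oligomycin. It had 208, 221 and 226 normalized counts in NaCl, 18.9, 18.4 and 34.4 in DAHB and 17.9, 18.4 and 22.3 in DAHB+O. DAHB and DAHB+O overlapped and every NaCl library lay above both. The fall in DAHB was 9.16-fold (log2 -3.20 ± 0.220, adjusted p 3.93e-09, limma), and the fall from NaCl to DAHB+O was 10.7-fold (log2 -3.42, adjusted p 1.78e-09). DAHB+O against DAHB gave -0.22 ± 0.220 (adjusted p 0.392), and this changed sign without DAHB replicate 3 (0.06, adjusted p 0.802). Of the 7 monocyte and macrophage markers, 4 rose and 3 fell in DAHB against NaCl, beside 35.5% and 38.4% of all tested genes. In NaCl, DAHB and DAHB+O, Csf1r averaged 45.1, 7.59 and 21.4 normalized counts, Cd14 36.7, 17.4 and 11.0 and Lyz2 90.6, 38.8 and 181.5. Cd68 averaged 321, 1037 and 602, Mrc1 3.16, 33.9 and 2.48, Adgre1 3.54, 11.7 and 22.2 and Itgam 40.0, 65.9 and 39.6. The part of such cells in the Slc7a2 values was not tested.

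Slc7a4 resembles the cationic carriers, but its transport has not been settled. It had 26.9, 31.5 and 21.7 normalized counts in NaCl, 59.7, 107 and 113 in DAHB and 44.4, 50.7 and 59.8 in DAHB+O. DAHB and DAHB+O lay above NaCl, and they overlapped each other. It rose 3.30-fold in DAHB (log2 1.72 ± 0.235, adjusted p 8.18e-06, limma). DAHB+O was 0.79 below DAHB on the log2 scale (adjusted p 0.00852), a call lost without DAHB replicate 3 (-0.63, adjusted p 0.0507).

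The sodium-coupled neutral carriers of the SLC38 family went both ways. Of the 7 tested, 2 rose and 4 fell in DAHB, beside 35.5% and 38.4% of all tested genes, and 3 rose and 1 fell in DAHB+O against DAHB, beside 33.1% and 29.5%. The share that rose was near that of all genes in both. Slc38a1 and Slc38a2 encode SNAT1 and SNAT2, which take up glutamine, alanine and serine. Slc38a1 had 9566, 9099.7 and 9488 normalized counts in NaCl, 6537, 6216 and 6157 in DAHB and 10436, 9635 and 9697 in DAHB+O. The DAHB libraries lay below all others. It fell by 0.57 ± 0.041 in DAHB (adjusted p 5.65e-09, limma) and was 1.57-fold higher in DAHB+O than in DAHB (log2 0.65, adjusted p 3.42e-09). DAHB+O against NaCl gave 0.08 (adjusted p 0.0899, limma). That difference passed in edgeR (0.10, adjusted p 0.0345), with the replicate block (0.08, 0.0329), under TMM rescaling (0.10, 0.0364) and under quantile normalization (0.30, 1.15e-05).

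Slc38a2 had 8592, 8031 and 8347 normalized counts in NaCl, 6106, 5362 and 5259.8 in DAHB and 7826, 7208 and 7266 in DAHB+O, and the groups did not overlap. It fell by 0.58 ± 0.053 in DAHB (adjusted p 1.02e-07, limma), and DAHB+O was 0.42 above DAHB (adjusted p 6.75e-06). DAHB+O remained 0.16 below NaCl (adjusted p 0.0119), a call lost without DAHB+O replicate 2 (adjusted p 0.0548) and turned in sign by quantile normalization (0.03, adjusted p 0.673).

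Slc38a7 encodes the lysosomal exporter of glutamine and asparagine. It had 393, 365 and 384 normalized counts in NaCl, 279, 272 and 261 in DAHB and 562, 532 and 595 in DAHB+O, with no overlap. It fell 1.41-fold in DAHB (log2 -0.49 ± 0.070, adjusted p 1.26e-05, limma) and was 2.08-fold higher in DAHB+O than in DAHB (log2 1.05, adjusted p 6.29e-09). Slc38a9, the lysosomal arginine carrier and sensor that signals to mTORC1, had 507, 506 and 514 in NaCl, 606, 600.4 and 667 in DAHB and 673, 652 and 658 in DAHB+O. It rose 1.23-fold in DAHB (log2 0.29 ± 0.059, adjusted p 0.000339), and DAHB+O overlapped DAHB with a difference of 0.08 ± 0.059 (adjusted p 0.231).

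Slc38a3 encodes SNAT3, a glutamine carrier known from liver and kidney. It had 59.0, 52.1 and 58.9 normalized counts in NaCl, 281, 294 and 291 in DAHB and 129, 121 and 135 in DAHB+O. The groups formed 3 separate levels with DAHB on top. The rise in DAHB was 5.03-fold (log2 2.33 ± 0.106, adjusted p 4.23e-11, limma), and DAHB+O was 2.24-fold below DAHB (log2 -1.16, adjusted p 1.88e-07) and 2.25-fold above NaCl (log2 1.17, adjusted p 9.01e-08).

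Among the rest of the family, Slc38a10 ranged from 4229 to 5069 normalized counts and fell by 0.13 in DAHB (adjusted p 0.00347, limma), a difference that quantile normalization turned to 0.01 (adjusted p 0.796). Slc38a6 ranged from 69.8 to 119. Its DAHB difference of 0.26 did not pass (adjusted p 0.150), passed without DAHB replicate 2 (0.41, 0.0233) and was -0.40 under quantile normalization (0.0300). Slc38a8 was below the minimum mean and was not tested, with 5.17, 3.93 and 2.72 in NaCl, 12.9, 12.6 and 13.6 in DAHB and 2.83, 3.46 and 2.68 in DAHB+O. Its DAHB libraries lay above the other 6.

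Of the proton-coupled carriers of the SLC36 family, Slc36a1 encodes PAT1, which exports small neutral amino acids from the lysosome. It had 279, 281 and 248 normalized counts in NaCl, 204, 207 and 180.4 in DAHB and 229, 249 and 293 in DAHB+O. DAHB lay below both other groups, which overlapped each other. It fell 1.37-fold in DAHB (log2 -0.45 ± 0.103, adjusted p 0.00105, limma), and DAHB+O was 1.30-fold above DAHB (log2 0.38, adjusted p 0.00510) and -0.07 from NaCl (adjusted p 0.529), which passed under quantile normalization (-0.31, 0.0135).

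Slc36a4, a carrier of proline and tryptophan, ranged from 783 to 982 normalized counts. It fell by 0.26 in DAHB (adjusted p 0.000219, limma). DAHB+O was 0.13 above DAHB (adjusted p 0.0270), a call lost without DAHB replicate 1 (0.0678) or without any of the 3 DAHB+O libraries (0.0573 to 0.0632), in DESeq2 (0.104) and under quantile normalization (0.172). Slc36a3 ranged from 24.6 to 51.7 and rose by 0.75 ± 0.222 in DAHB (adjusted p 0.00688), which quantile normalization reduced to 0.03 (0.906). DAHB+O against DAHB gave -0.47 (0.0799), which passed without DAHB+O replicate 3 (-0.69, 0.0147). Its antisense RNA Slc36a3os had 78.6, 94.4 and 84.3 in NaCl, 215, 231 and 226 in DAHB and 88.7, 112 and 116 in DAHB+O. All DAHB libraries were above the rest. Slc36a3os rose 2.60-fold in DAHB (log2 1.38 ± 0.125, adjusted p 8.79e-08) and was 2.13-fold lower in DAHB+O than in DAHB (log2 -1.09, adjusted p 2.21e-06). The span of Slc36a3os, 3150 bases, lies within Slc36a3 on the opposite strand, but their annotated exons share 0 bases.

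Both SLC6 carriers of amino acids fell in DAHB, beside 38.4% of all tested genes. Both stood higher in DAHB+O than in DAHB, beside 33.1%. Slc6a9 (chr4:117834506-117875198, plus strand) encodes GLYT1, a glycine carrier. It had 286, 236 and 277 normalized counts in NaCl, 70.7, 32.9 and 51.1 in DAHB and 385, 369 and 373 in DAHB+O. The groups were separate, with DAHB lowest. It fell 5.31-fold in DAHB (log2 -2.41 ± 0.191, adjusted p 1.93e-08, limma) and was 7.499-fold higher in DAHB+O than in DAHB (log2 2.91, adjusted p 5.88e-09). The excess of DAHB+O over NaCl, 0.50 with an adjusted p of 0.0282, was lost without NaCl replicate 2 (0.0998), without any of the 3 DAHB+O libraries (0.0573 to 0.0718) and under quantile normalization (0.196). Slc6a9 overlaps B4galt2 by 5939 bases on the opposite strand, 46 of them in exons of both. Protein-coding genes absent from the expression table also overlap carriers on the opposite strand, and their shared exon bases were not counted. They are Ccdc24 with Slc6a9 (6034 bases), Gm20388 with Slc7a5 (26545) and P2rx6 with Slc7a4 (5783).

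Slc6a19 encodes B0AT1, a neutral amino acid carrier known from intestine and kidney. It had 379.6, 448 and 428 normalized counts in NaCl, 232, 291 and 285 in DAHB and 383, 411 and 435 in DAHB+O. DAHB lay below the other groups, which overlapped. It fell 1.56-fold in DAHB (log2 -0.64 ± 0.096, adjusted p 2.21e-05, limma) and was 1.53-fold higher in DAHB+O than in DAHB (log2 0.61, adjusted p 5.42e-05).

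The SLC6 carriers of other substrates that were tested both rose in DAHB, beside 35.5% of all tested genes. Slc6a8, the creatine carrier, had 88.9, 88.5 and 96.0 normalized counts in NaCl, 248, 246 and 247 in DAHB and 253, 202 and 263 in DAHB+O. DAHB and DAHB+O overlapped and both lay above NaCl. The rise in DAHB was 2.69-fold (log2 1.43 ± 0.108, adjusted p 1.12e-08, limma), and DAHB+O against DAHB gave -0.05 ± 0.108 (adjusted p 0.679), with a sign that turned without DAHB+O replicate 2 (0.06, 0.626). Slc6a13, the GABA carrier GAT2, ranged from 4.92 to 12.7 (NaCl), 37.5 to 48.8 (DAHB) and 10.4 to 27.4 (DAHB+O). Its NaCl mean was below the minimum of 10 that it passed through the other groups. It rose by 2.27 ± 0.365 in DAHB (adjusted p 4.42e-05), and DAHB+O was 1.23 below DAHB (adjusted p 0.00862). DAHB+O was 1.04 above NaCl (adjusted p 0.0180), a call lost without NaCl replicate 2 (0.0830), without DAHB+O replicate 1 (0.109) and under quantile normalization (0.101). Slc6a12, the betaine carrier, was not tested and ranged from 2.98 to 8.93 over the 9 libraries.

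Slc43a3 encodes a carrier of purine nucleobases. It had 1926, 1829.6 and 1802 normalized counts in NaCl, 1697, 1566 and 1522 in DAHB and 3388, 3381 and 3428 in DAHB+O, with no overlap. DAHB+O was 2.13-fold above DAHB (log2 1.09 ± 0.046, adjusted p 5.39e-11, limma). The fall of 0.22 in DAHB (adjusted p 0.000582) was lost under quantile normalization (-0.04, adjusted p 0.365). Slc7a6os ranged from 468 to 694, fell by 0.50 in DAHB (adjusted p 7.3e-07) and was 0.45 higher in DAHB+O than in DAHB (adjusted p 3.68e-06).

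A list of genes of the ATF4 amino acid response holds none of the 34 carriers. Of its 26 tested genes, 3 rose and 18 fell in DAHB against NaCl (median log2 -0.50), beside 35.5% and 38.4% of all tested genes, and 23 rose and 2 fell in DAHB+O against DAHB (median 1.38), beside 33.1% and 29.5%. The 3 that rose in DAHB were Cbs, Pycr1 and Cebpb, and the 2 that fell in DAHB+O against DAHB were Ddit4 and Vldlr, all named after their values were seen. The 4 genes with the smallest p in DAHB+O against DAHB follow. Asns, asparagine synthetase, averaged 3246 normalized counts in NaCl, 1338 in DAHB and 8878 in DAHB+O (2.73 ± 0.052 in DAHB+O against DAHB, adjusted p 2.36e-14, limma). Trib3, a pseudokinase induced by stress, averaged 746, 162 and 3573 (4.47, adjusted p 7.73e-14). Ddit3, the factor CHOP, averaged 406, 157 and 2014 (3.67, adjusted p 3.65e-14), and Aldh18a1, an enzyme of proline synthesis, averaged 5489, 3952 and 13470 (1.77, adjusted p 6.92e-13).

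A list of genes of amino acid sensing and of mTORC1 at the lysosome was counted in the same way. The list includes Mtor, Rptor, Tsc2 and Tfeb, which are not sensors, and shares Sesn2 with the ATF4 list. Of its 35 tested genes, 4 rose and 16 fell in DAHB against NaCl (median -0.11), beside 35.5% and 38.4% of all tested genes, and 11 rose and 10 fell in DAHB+O against DAHB (median 0.05), near the 33.1% and 29.5% of all tested genes. Sesn2, a leucine sensor, rose by 1.38 ± 0.077 from a mean of 758 to 1984 normalized counts in DAHB+O against DAHB (adjusted p 1.06e-09, limma), and Lars, leucyl-tRNA synthetase, rose by 0.81 (1.4e-09). Rraga, a Rag GTPase, fell by 0.69 (2.03e-09), and Lamtor1, its lysosomal anchor, fell by 0.43 (7.11e-07).

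Amino acid and dipeptide carriers of other families were counted for comparison. Of 11 tested, 5 rose and 3 fell in DAHB against NaCl, beside 35.5% and 38.4% of all tested genes, and 5 rose and 2 fell in DAHB+O against DAHB, beside 33.1% and 29.5%. Slc15a3, a lysosomal carrier of histidine and dipeptides, averaged 154 normalized counts in NaCl, 653 in DAHB and 935 in DAHB+O, with a rise of 2.09 ± 0.083 in DAHB (adjusted p 1.08e-11, limma). Its relative Slc15a4 fell by 0.38 in DAHB+O against DAHB (0.000111). Slc17a6, a vesicular glutamate carrier, fell by 1.35 to a mean of 15.9 (6.6e-05), and Slc17a5, the lysosomal sialic acid carrier, rose by 0.38 (0.000634). Slc16a10, a carrier of aromatic amino acids chosen after its values were seen, averaged 1655, 4556 and 4930 and rose by 1.46 in DAHB (7.98e-13).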

How the data were processed

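The authors sequenced poly(A) RNA of 9 libraries of activated mouse CD8 T cells. Per the submitters' processing notes, Trim Galore 0.4.5, STAR 2.4, HTSeq 0.9.1, Picard and DESeq2 were used with build mm10. Not given in the sources used here are the counting annotation, its strand setting and any gene filter. The deposited values are a signal, read counts that the authors divided by a size factor for each library and that are named normalized counts in the text. The values themselves show this, since 100% of those in each column were whole multiples of 1 step within 1e-06 reads. No value was 0, so genes silent in 1 library can be missing. The Slc7a5 cell of NaCl replicate 2 was blank.

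Genes whose mean over all 9 libraries reached 10 were taken to log2(value + 1), which understates changes of weak genes, and fitted with limma 3.58.1 in R 4.3.3, with 1 mean per group, a variance trend and no block. Two-sided p-values were adjusted by Benjamini-Hochberg within each of 3 comparisons, with calls at an adjusted p under 0.05. Values in every library are given for carriers called in either of the first 2 comparisons with at least a 1.5-fold change and a mean of at least 50 in the higher group, for 6 named carriers and for some others. Counts per kilobase used merged exons of the GENCODE vM21 annotation (mm10), in which all 34 genes were found. Other settings tried were a pseudocount of 0.5 or 10, a minimum mean of 50 or none, 6 libraries only, a replicate block, TMM, quantile normalization, edgeR 4.0.16 and DESeq2 1.42.0 on the recovered whole reads, and leaving out each library. The blank cell keeps Slc7a5 out of the count tests, and edgeR without NaCl replicate 2 was added after seeing the data. The fit was also run on simulated data in which far fewer genes changed than were called here. That run does not bear on the calls above. The carriers, gene lists and tests were chosen with earlier results of these data known.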

Additional observations from a re-analysis of the deposited data

How the results depend on the processing

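Each carrier's difference was recomputed under the alternatives 1809 times in all. Direction and call were kept in 1720, the call was lost in 55 and gained in 11, and the sign changed in 23. The cause was not tested. With a minimum mean of 50, which leaves 28 of the carriers, 6 were higher in DAHB against NaCl and 3 lower in DAHB+O against DAHB, in place of 10 and 5. Of all 11647 genes tested with that minimum, 3989 were higher in the first comparison and 3614 lower in the second. Leaving out each library in turn gave 10 to 11 higher and 17 to 19 lower in DAHB against NaCl, 18 to 20 and 4 to 6 in DAHB+O against DAHB, and 17 to 18 and 4 to 6 in DAHB+O against NaCl. Of all 14169 tested genes, 4767 to 5006 were then higher and 5206 to 5412 lower in DAHB against NaCl. For all genes it was 4287 to 4714 and 3836 to 4210 in DAHB+O against DAHB. In DAHB+O against NaCl it was 4948 to 5261 and 5063 to 5441. The other counts of carriers stayed within 1.5 times the reported ones. In edgeR, which left out Slc7a5, they were 10 and 17, 18 and 5, and 19 and 5. DESeq2, also without Slc7a5, gave 10 and 17, 17 and 5, and 17 and 5. Of all 14168 genes tested there, edgeR called 5333 higher and 5173 lower, 4627 and 4417, and 5373 and 5188. DESeq2 called 4974 and 5105, 4327 and 4115, and 5058 and 5135. For Slc7a5, edgeR without NaCl replicate 2 gave -0.17 in DAHB against NaCl (adjusted p 0.0486) and 1.48 in DAHB+O against DAHB (1.65e-10).

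Signs changed, on the log2 scale, in DAHB against NaCl for Slc3a2 (0.0114 under TMM, 0.116 under quantile normalization, 0.0251 in edgeR, 0.00982 in DESeq2, and -0.0411 without DAHB replicate 1 to 0.0295 without DAHB replicate 3) and, under quantile normalization, for Slc1a5 (0.0830), Slc38a6 (-0.396) and Slc38a10 (0.0101). In DAHB+O against DAHB, Slc7a2 changed under quantile normalization (0.0185) and ran from -0.375 to 0.0591 when a library was left out, and Slc6a8 ran from -0.128 to 0.0633. In DAHB+O against NaCl, quantile normalization changed Slc38a6 (-0.0474), Slc43a1 (-0.214), Slc38a2 (0.0254), Slc36a3 (-0.271) and Slc36a3os (-0.236). Leaving out a library gave there -0.0974 to 0.0224 for Slc6a19, -0.0125 to 0.0708 for Slc43a1, -0.171 to 0.00447 for Slc36a1 and -0.897 to 0.0504 for Slc1a2.

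Replicate numbers are shared between groups, but the labels give no animal or culture behind them, so the numbers were not taken to pair the libraries. The 9 same-numbered pairs had correlations of their deviations of 0.0273 to 0.160, all positive, and 2 of them were above 0.1. As a hint from the data, each library correlated best with its own number in 18 of 18 cases. With the replicate block the counts were 10 higher and 18 lower, 20 and 6, and 20 and 6 in the order above. Of all 14169 tested genes the block gave 5129 and 5554, 4826 and 4319, and 5274 and 5444.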
